A study of Mus musculus with 12 samples.

Results

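The interleukin-1 system of the mouse heart and the receptors of interleukin-4 and interleukin-17 were followed as 9 named genes. They are the ligands Il1b and Il18, the antagonist Il1rn, the signalling receptors Il1r1 and Il1rl1, the shared accessory chain Il1rap, the decoy receptor Il1r2, and the receptor chains Il4ra and Il17ra. Members were taken as the probe sets (groups of short probes for 1 transcript) that the array's annotation gives to that single gene symbol. Of the 9 genes, 8 had such probe sets, 15 in all, out of 12393 genes on the array. Il1rl1 was not analysed here. A gene was tested when its strongest probe set had a mean signal of at least 17.3 over the 12 arrays, which is the 40th percentile, and 7 members passed that filter among 8109 genes tested. Il1rn fell below it and is given from a fit without the filter.

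Hearts came from C57Bl/6 mice whose left anterior descending coronary artery was ligated (MI, a model of myocardial infarction) or that had sham surgery, in the wake or in the sleep phase. The 4 groups of 3 mice were wake MI, wake sham, sleep MI and sleep sham. Wake-time surgery took place at ZT13 to ZT15 and hearts were taken at ZT23, sleep-time surgery at ZT1 to ZT3 with hearts taken at ZT11 (ZT, hours of the light cycle), 8 hours after surgery in each case. Time of surgery and time of collection therefore changed together and cannot be told apart, and no group of mice without surgery was analysed here. The labels call the MI tissue infarcted myocardium and the tissue heart, with no account of which region of a heart was taken.

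Interleukin-1 beta is made as a precursor, cut by inflammasome caspases, and binds the receptor IL-1R1, which signals with the accessory protein IL-1RAP through MyD88 to NF-kappa B. IL-1RA occupies that receptor without signalling, and IL-1R2, abundant on neutrophils, binds the ligand but lacks the signalling domain. IL-4R alpha is the shared chain of the receptors for IL-4 and IL-13 and signals through JAK kinases and STAT6, while IL-17RA is the common chain of the IL-17 receptors and acts through the adaptor Act1. In infarcted heart, interleukin-1 is known as an early driver of inflammation.

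The promoters of 3 members are shown because the results turn on them: Il1b as the ligand, Il1r2 as the decoy that rose at both times, and Il4ra as a receptor that also differed between wake and sleep sham hearts. The sequences are RefSeq's for build GRCm38.p6, from 250 bases before to 50 after the start site, 300 bases each, at chr2:129371090-129371389 (minus strand) for Il1b, chr1:40085843-40086142 (plus strand) for Il1r2 and chr7:125552021-125552320 (plus strand) for Il4ra. Capitals mark matches to a searched motif.
Il1b: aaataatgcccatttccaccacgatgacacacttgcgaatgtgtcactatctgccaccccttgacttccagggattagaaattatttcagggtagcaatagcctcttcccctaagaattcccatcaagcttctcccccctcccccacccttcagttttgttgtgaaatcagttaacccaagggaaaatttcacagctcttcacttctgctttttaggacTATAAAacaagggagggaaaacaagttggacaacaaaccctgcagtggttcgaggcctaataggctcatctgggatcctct
Il1r2: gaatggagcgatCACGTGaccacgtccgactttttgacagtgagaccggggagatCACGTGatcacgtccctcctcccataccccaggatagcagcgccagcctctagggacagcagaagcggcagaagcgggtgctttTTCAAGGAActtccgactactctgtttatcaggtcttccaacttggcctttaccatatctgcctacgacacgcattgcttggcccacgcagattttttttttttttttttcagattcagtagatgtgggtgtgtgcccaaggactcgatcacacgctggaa
Il4ra: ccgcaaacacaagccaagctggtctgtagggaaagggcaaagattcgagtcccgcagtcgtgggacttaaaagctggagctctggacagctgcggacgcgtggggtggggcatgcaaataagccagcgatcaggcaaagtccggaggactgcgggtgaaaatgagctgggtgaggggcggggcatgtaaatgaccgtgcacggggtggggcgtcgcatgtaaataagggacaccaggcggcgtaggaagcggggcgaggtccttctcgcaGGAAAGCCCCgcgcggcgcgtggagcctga
The 7 motifs searched were the kappa B consensus, AP-1 (TGACTCA or TGAGTCA), C/EBP (TTGCNNAA), the STAT site GAS (TTCNNNGAA), the E-box (CACGTG) read by the clock proteins, the Rev-erb/ROR core site (AGGTCA), all on both strands, and the TATA box (TATAAA) on the gene's strand. The capitals are a TATA box 31 bases before the start of Il1b, 2 E-boxes (at -238 and -195) and 1 GAS (at -111) in Il1r2, and 1 kappa B match (20 bases after the start) in Il4ra. Of all promoters of this length in the table, 8.32% held TATAAA, 7.15% an E-box, 8.3% a GAS and 8.46% a kappa B match. The other 3 motifs occurred in 5.2% (AP-1), 10.8% (C/EBP) and 16.3% (core site) of them, and no matches overlapped in the members' promoters. A match describes letters only and was not related to binding.

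The signals are MAS5 intensities, and each array had been scaled to a trimmed mean of 150.1 or 150.09. Median signals were 32.7 to 34.7. Over the 8109 tested genes, the log2 signals of arrays correlated at 0.974 to 0.988 within groups and 0.948 to 0.989 between groups. Cardiomyocyte markers were high on every array, with a summed signal of 10 markers between 68060 and 96440. One wake sham array, replicate 3, carried a summed signal of 14850 for 7 atrial cardiomyocyte markers, while the other 11 arrays lay between 1136 and 4943, with sleep sham replicate 3 the highest of these. The ratio of 3' to 5' beta-actin signal, a measure of RNA integrity, was 2.60 ± 0.619 in wake MI hearts, against 1.79 ± 0.0205 in wake sham hearts, and 2.40 ± 0.454 in sleep MI hearts, against 2.18 ± 0.282 in sleep sham hearts (n = 3 each, SD). Its ranges did not overlap between wake MI and wake sham hearts or between wake sham and sleep sham hearts. In RNA from heart tissue, fewer cells of a type and less RNA per cell cannot be told apart.

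After MI, the interleukin-1 ligand, its signalling and decoy receptors and the IL-4 and IL-17 receptor chains were higher than after sham surgery. Over both times, Il1b, Il1r1, Il1r2, Il4ra and Il17ra rose, 5 of 7 tested members, against 8.57% of all genes called higher, and 0 members fell, against 13.6% of all genes called lower. Differences are given as log2(signal + 16), MI minus sham, from limma with Benjamini-Hochberg adjustment over all tested genes. That scale understates changes of low signals. The median member difference was 0.83, against -0.06 for all genes. In wake hearts 5 of 7 members were higher, against a background of 7.81%, and 0 were lower, against 10.6%. In sleep hearts Il1r2 alone passed the test, 1 of 7, against 1.69% called higher, with 0 lower against 0.987%. An unadjusted limma p below 0.05 was reached by 5 of 7 members in sleep hearts, against 1395 of 8109 genes. In wake hearts it was also 5 of 7, against 2687 of 8109. The median member difference was 0.54 in sleep and 1.08 in wake hearts. The wake and sleep effects were also compared directly, and 0 members passed that test, as did 0 of all genes.

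Il1b, the ligand, had 40.8, 52.1 and 47.1 signal units in wake MI hearts, against 13.7, 23.03 and 20.5 in wake sham hearts. In sleep hearts it had 37.98, 103.5 and 55.2 after MI, against 31.8, 39.6 and 15.1 after sham surgery. All 3 wake MI values lay above all wake sham values, whereas the lowest sleep MI array was below the highest sleep sham array. Il1b rose over both times by a log2 difference of 0.83 ± 0.184 (SE; 1.78-fold, limma adjusted p = 0.00635). That call was lost with the beta-actin covariate (adjusted p = 0.0620), and the difference was 1.203 with a pseudocount of 1 and 0.44 with 64. The wake difference was 0.84 (adjusted p = 0.0383) and the sleep difference 0.82 (adjusted p = 0.114). The wake call was lost without any 1 of the 6 wake arrays, at adjusted p between 0.0540 and 0.132.

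Il18, an interleukin-1 relative that drives interferon-gamma in lymphocytes, had 12.0, 28.2 and 20.2 in wake MI hearts, against 20.7, 13.2 and 42.6 in wake sham hearts. Sleep hearts had 27.3, 15.02 and 34.2 after MI, against 18.1, 16.8 and 19.3 after sham surgery. The groups overlapped at both times. Over both times the log2 difference was 0.05 ± 0.176 (adjusted p = 0.878). Its signal lay close to the level filter, and a change could be missed there.

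Il1rn, which encodes the receptor antagonist, had a strongest probe set of mean signal 14.2, below the filter. It had 19.1, 20.1 and 14.7 in wake MI hearts, against 3.71, 5.77 and 1.61 in wake sham hearts. Sleep hearts had 15.7, 45.1 and 10.2 after MI, against 13.9, 14.3 and 6.63 after sham surgery. The wake groups did not overlap and the sleep groups did. Without the filter, where 5.29% of genes were called higher over both times, Il1rn was higher with a log2 difference of 0.61 ± 0.176 (adjusted p = 0.0381). The wake difference was 0.79 (adjusted p = 0.0633) and the sleep difference 0.43 (adjusted p = 0.491). Its other 2 probe sets averaged 9.83 and 9.67, and in the fit of every probe set the first had a difference of 0.11 (adjusted p = 0.621) and the second was higher by 0.56 (adjusted p = 0.0363). MAS5 signals that low carry little information.

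Il1r1, the signalling receptor, had 141.8, 91.3 and 156.6 in wake MI hearts, against 57.3, 46.5 and 51.0 in wake sham hearts. Sleep hearts had 167.6, 167.1 and 98.7 after MI, against 96.0, 130.3 and 64.1 after sham surgery. The wake groups were separate, while in sleep hearts the lowest MI array was below the highest sham array. Il1r1 rose over both times (log2 difference 0.80 ± 0.166, 1.74-fold, adjusted p = 0.00444) and in wake hearts (1.08 ± 0.235, 2.12-fold, adjusted p = 0.00720). In sleep hearts the difference was 0.52 (adjusted p = 0.279). Once the beta-actin ratio was added to the fit, the adjusted p was 0.0583 over both times and 0.114 in wake hearts.

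Il1rap, the accessory chain that IL-1R1 and ST2 need to signal, had group means between 23.4 and 30.2. Its strongest probe set had 27.3, 27.98 and 28.9 in wake MI hearts, against 19.9, 26.02 and 24.3 in wake sham hearts. Sleep hearts had 20.5, 29.5 and 27.1 after MI, against 26.9, 34.9 and 28.8 after sham surgery. The wake groups were separate by a narrow margin and the sleep groups overlapped. Over both times the log2 difference was 0.01, with a 95% interval of -0.202 to 0.215 (adjusted p = 0.970). The other 2 probe sets of Il1rap averaged 9.62 and 4.5, with differences of 0.17 and 0.02 over both times.

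Il1r2, the decoy receptor, had 94.5, 121 and 55.4 in wake MI hearts, against 9.53, 11.3 and 8.37 in wake sham hearts. Sleep hearts had 67.1, 126.6 and 108.8 after MI, against 29.4, 54.0 and 5.97 after sham surgery. At each time every MI array was above every sham array. Over both times Il1r2 rose by a log2 difference of 1.73 ± 0.243 (3.32-fold, adjusted p = 0.000349). That value was 2.57 with a pseudocount of 1 and 0.94 with 64. The difference was 1.997 in wake hearts (3.99-fold, adjusted p = 0.00197) and 1.47 in sleep hearts (2.77-fold, adjusted p = 0.0369). The sleep call was lost when any 1 of 7 arrays was left out, at adjusted p between 0.0510 and 0.126. Those were wake sham replicates 1 and 3, all 3 sleep MI arrays, and sleep sham replicates 1 and 3. Without sleep sham replicate 3 the sleep difference was 1.02 (adjusted p = 0.118).

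Il4ra, the IL-4 and IL-13 receptor chain, had 221.1, 185.7 and 247.1 in wake MI hearts, against 33.4, 33.7 and 39.2 in wake sham hearts. Sleep hearts had 176.8, 189 and 193.5 after MI, against 131.9, 170.7 and 64.7 after sham surgery. The groups were separate at both times, widely in wake hearts and by a few units in sleep hearts. Il4ra rose over both times (log2 difference 1.41 ± 0.159, 2.65-fold, adjusted p = 6.36e-05) and in wake hearts (2.18 ± 0.224, 4.53-fold, adjusted p = 7.03e-05). With the mean of its probe sets these differences were 0.94 and 1.19, both past the test. In sleep hearts the difference was 0.63 (adjusted p = 0.168). It was 0.28 without sleep sham replicate 3 and 0.89 without sleep sham replicate 2, where the adjusted p was 0.0366. The second probe set of the gene, with a mean of 19.8, had 33.1, 27.2 and 22.0 in wake MI hearts, against 3.98, 11.1 and 15.99 in wake sham hearts. That probe set had 27.3, 40.4 and 24.3 in sleep MI hearts, against 18.1, 11.4 and 2.67 in sleep sham hearts. In a fit of every probe set, it also rose over both times, by 0.79 (adjusted p = 0.00971), and the third, with a mean of 18, had a difference of 0.62 (adjusted p = 0.0708). In wake hearts neither passed in that fit, with 0.74 (adjusted p = 0.0725) for the second and 0.65 (adjusted p = 0.188) for the third.

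Il17ra, the common IL-17 receptor chain, had 54.1, 74.1 and 73.0 in wake MI hearts, against 1.79, 18.6 and 2.03 in wake sham hearts. Sleep hearts had 74.7, 85.6 and 88.5 after MI, against 56.0, 71.7 and 33.5 after sham surgery. The groups were separate at both times, and wake sham hearts stood below the other 3 groups. Il17ra rose over both times (log2 difference 1.21 ± 0.176, 2.32-fold, adjusted p = 0.000451) and in wake hearts (1.89 ± 0.249, 3.70-fold, adjusted p = 0.000341), and its sleep difference was 0.54 (adjusted p = 0.286). The size in wake hearts depends on how signals near 0 are treated, being 3.62 with a pseudocount of 1 and 0.88 with 64, both past the test. Its second probe set, with a mean of 12.96, had a difference of 0.46 over both times (adjusted p = 0.0624).

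**Figure D1:**
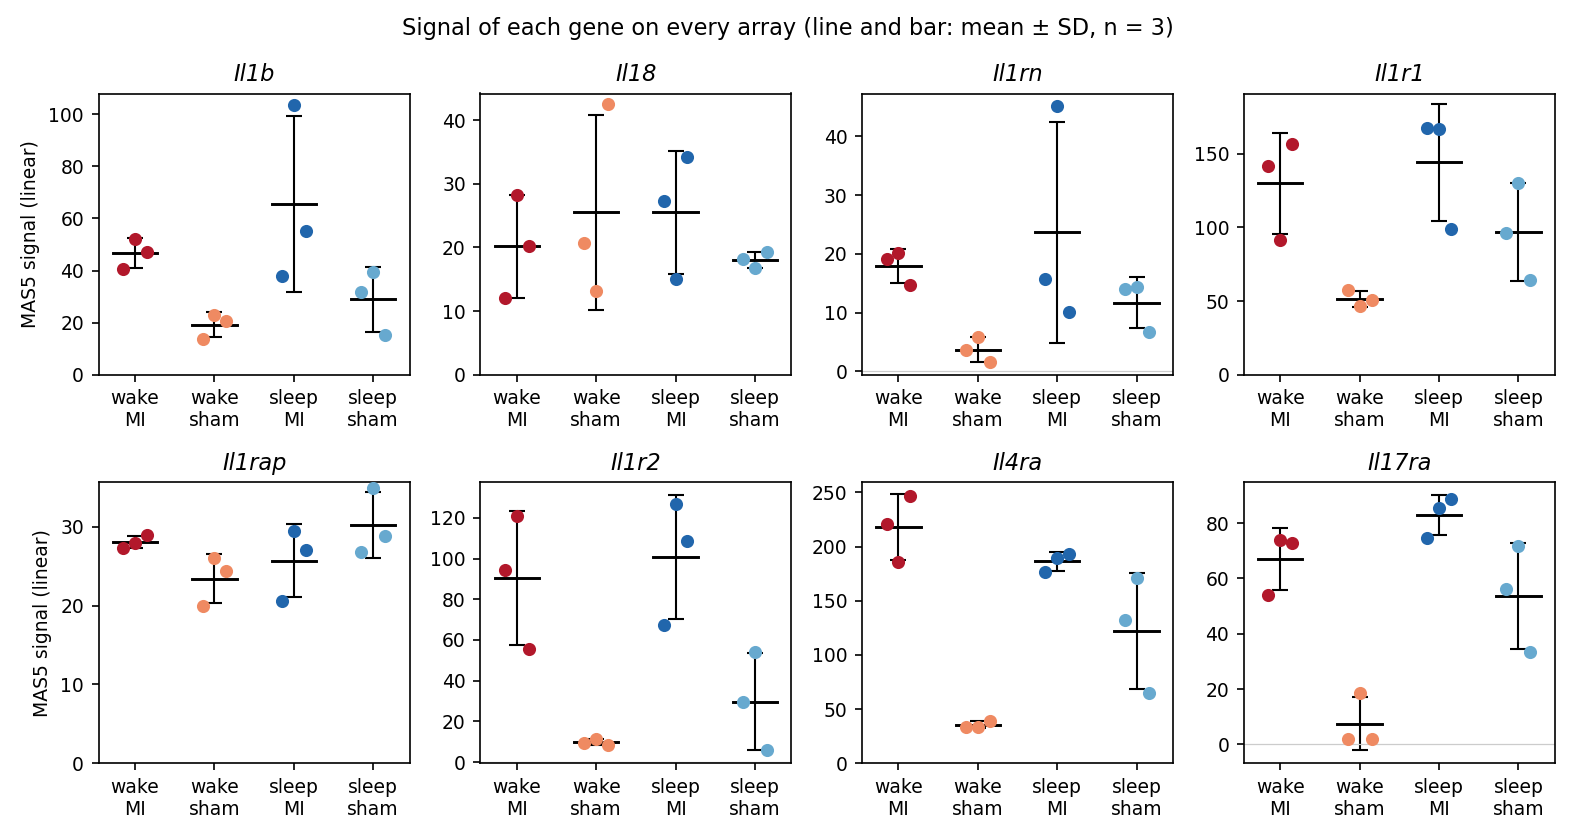
MAS5 signal (linear axis) of the strongest probe set of each of 8 members on every array, in wake MI, wake sham, sleep MI and sleep sham hearts; points are arrays, lines and bars the mean ± SD of 3. Il4ra and Il17ra are lowest in the wake sham group, with means of 35.4 and 7.47, while the groups of Il18 overlap at both times.

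At the level of single groups, the 3 wake MI arrays lay outside the wake sham range for 6 of 7 tested members, Il18 being the exception, where 35.2% of all genes were separated in that way. The sleep groups were separate for 3 of 7 members, Il1r2, Il4ra and Il17ra, against 23.5% of all genes, and the same 3 members were separate in one direction at both times, against 11.3%. By mean signal, Il1b, Il1rn, Il1r1, Il1r2 and Il17ra shared 1 order, with sleep MI highest, then wake MI, sleep sham and wake sham. Il4ra differed from it only in having wake MI above sleep MI, with overlapping ranges. Sleep MI and wake MI hearts overlapped for Il1b, Il1rn, Il1r1 and Il1r2. Wake MI and sleep sham hearts overlapped for Il1r1 and Il17ra. Sleep sham hearts stood clear of wake sham hearts for Il1rn, Il1r1, Il4ra and Il17ra, and overlapped them for Il1b and Il1r2. For Il18 and Il1rap all neighbouring groups overlapped.

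**Figure D2:**
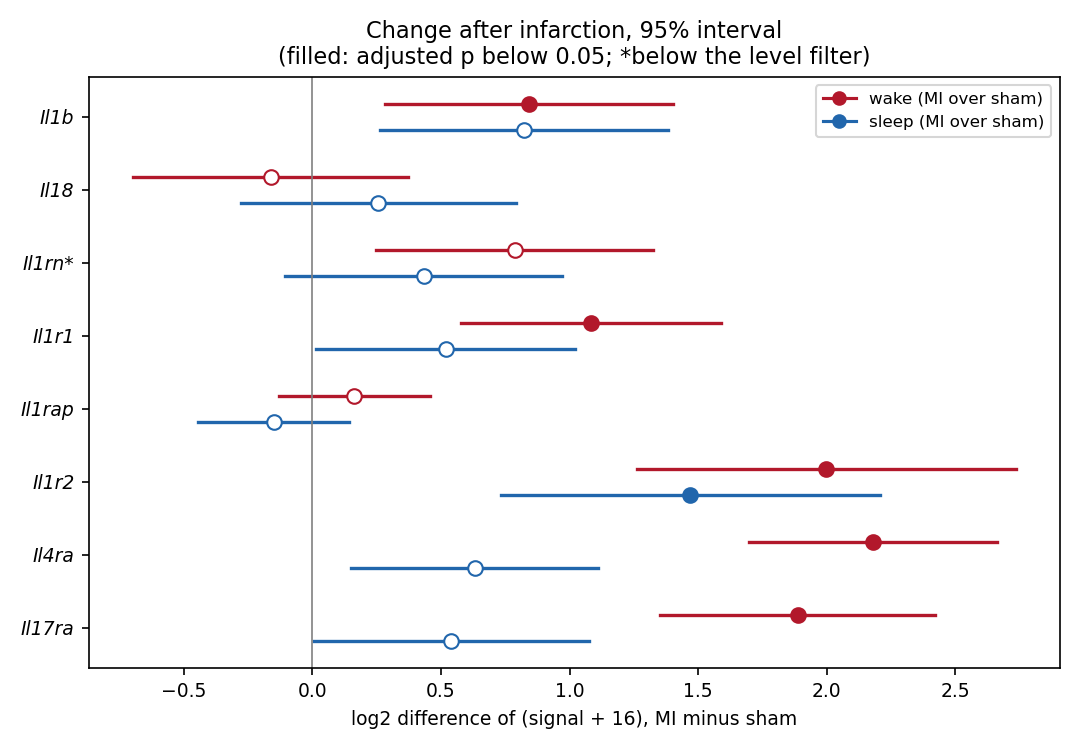
Log2 difference of (signal + 16), MI minus sham, for each member in wake and in sleep hearts, with 95% intervals from limma; filled points passed the test. Wake estimates lie above sleep estimates for every member shown except Il18, by little for Il1b (0.84 against 0.82). Only Il1r2 is filled in sleep hearts, at 1.47.

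The size of the MI difference in wake hearts minus that in sleep hearts was estimated in the same fit. It was positive for 6 of 7 members, Il18 being the exception at -0.42, but no member was called, and the background was 0% of genes (848 genes had an unadjusted p below 0.05). For Il4ra the estimate was 1.55 with a 95% interval of 0.868 to 2.23 (adjusted p = 0.133). For Il17ra it was 1.35 with an interval of 0.592 to 2.10 (adjusted p = 0.222). Without sleep sham replicate 3 the Il4ra estimate was 1.90 with an adjusted p of 0.000829, and without wake sham replicate 2 that of Il17ra was 1.66 with an adjusted p of 0.0267. With the mean of its probe sets the Il4ra estimate was 0.51 (adjusted p = 0.526), and in the fit of every probe set the other 2 probe sets of the gene had -0.09 (adjusted p = 0.959) and 0.07 (adjusted p = 0.975). The Il17ra estimate was 2.94 with a pseudocount of 1 and 0.55 with 64. For Il1b the estimate was 0.02 (adjusted p = 0.990).

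Between the wake and sleep phases, Il4ra and Il17ra differed in sham hearts. These 2 of 7 tested members were lower in wake than in sleep sham hearts, against 1.52% of all genes called in either direction. Il4ra had a log2 difference of -1.35 ± 0.224, wake minus sleep (0.393-fold, adjusted p = 0.00832), and Il17ra of -1.61 ± 0.249 (0.329-fold, adjusted p = 0.00544). Their mean signals were 35.4 ± 3.28 for Il4ra in wake sham hearts, against 122.4 ± 53.6 in sleep sham hearts, and 7.47 ± 9.63 for Il17ra in wake sham hearts, against 53.8 ± 19.2 in sleep sham hearts (n = 3 each, SD). Il1r1 (-0.70, adjusted p = 0.187), Il1r2 (-0.68, adjusted p = 0.411) and Il1b (-0.32, adjusted p = 0.638) had negative estimates that did not pass. The ranges did not overlap for 4 members, Il1r1, Il1rap, Il4ra and Il17ra, against 20.1% of all genes. The Il4ra call had an adjusted p of 0.0587 without wake sham replicate 1 of 0.0559 with the 2 groups fitted alone and of 0.0597 with the beta-actin covariate. With the mean of probe sets the Il4ra difference was -0.53 (adjusted p = 0.211). The Il17ra difference, with wake sham signals near 0, was -3.25 with a pseudocount of 1 and -0.72 with 64, both past the test. The second Il4ra probe set had a difference of -0.004 (adjusted p = 0.998) in the fit of every probe set, and that of Il17ra -0.53 (adjusted p = 0.378).

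Among MI hearts, 0 of 7 members differed between wake and sleep, with 0 at an unadjusted p below 0.05, against 0.074% of all genes called. Il4ra had a difference of 0.20 (adjusted p = 0.906) and Il17ra of -0.26 (adjusted p = 0.898). The wake and sleep ranges were separate for 1 member, Il17ra, against 10.9% of all genes. The sham and MI comparisons of 1 phase share arrays with the comparisons between phases, so the values above are not independent of the MI differences.

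**Figure D3:**
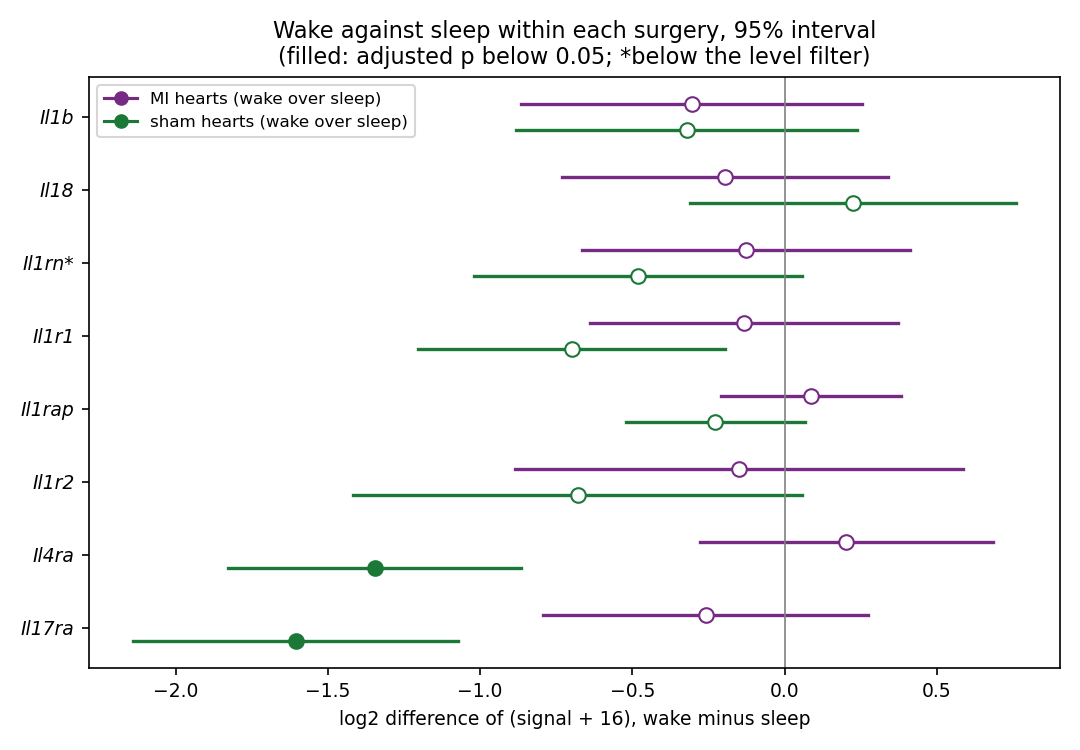
Log2 difference of (signal + 16), wake minus sleep, for each member in MI and in sham hearts, with 95% intervals from limma; filled points passed the test. In sham hearts Il4ra (-1.35) and Il17ra (-1.61) are filled, and the intervals of all members in MI hearts cross 0.

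Sleep sham replicate 3 had the lowest sleep sham signal for Il1b, Il1rn, Il1r1, Il1r2, Il4ra and Il17ra. The same array had the lowest sum of 14 neutrophil markers in its group, 366.7 against 724.1 and 929.1 on the other two, and the lowest beta-actin ratio of the sleep sham arrays, 1.94. In that group S100a8 and S100a9, with means of 243.6 and 287.8, made up most of the mean sum of 673.3. The part of the neutrophil markers and of the beta-actin ratio in the sleep results was not tested. Wake sham replicate 3, the array with high atrial markers, carried the highest Il18 signal of all arrays. Leaving it out lost the wake call of Il1b and the sleep call of Il1r2, and the other calls over both times and in wake hearts were kept.

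Neutrophil markers moved in the same direction as Il1b, Il1r1, Il1r2, Il4ra and Il17ra. The sum of 14 markers on the array was 1016 to 1384 in wake MI hearts, against 184.6 to 599.7 in wake sham hearts, and 1147 to 2103 in sleep MI hearts, against 366.7 to 929.1 in sleep sham hearts. S100a8 and S100a9 made up most of the mean sums. Their means were 439.1 and 539.9 in wake MI hearts, where the mean sum was 1202. In wake sham hearts they were 123.8 and 163.2, where the mean sum was 375.5. Only 7 of the 14 markers passed the level filter. Of 7 tested markers 6 rose over both times, against 8.57% of all genes, 5 in wake hearts, against 7.81%, and 1 (Hdc) in sleep hearts, against 1.69%. Over both times they were led by S100a9 (1.68, adjusted p = 0.00284), S100a8 (1.58, adjusted p = 0.0015) and Hdc (1.42, adjusted p = 0.000625). Trem1, a receptor of mature neutrophils named after its values were seen, was near 0, with group means of at most 2.85. Monocyte and macrophage markers (15 on the array) summed to 4276 to 4881 in wake MI hearts, against 4900 to 7684 in wake sham hearts, and to 4982 to 5537 in sleep MI hearts, against 5225 to 5535 in sleep sham hearts. Of 12 tested, 1 rose over both times and 1 fell, near or below the all-gene shares of 8.57% and 13.6%. In wake hearts 1 rose and 2 fell, against 7.81% and 10.6% of all genes, with a list median of -0.33. Those that fell were Lyz2 (-1.03, adjusted p = 0.00059) and Adgre1 (-0.84, adjusted p = 0.00575). In sleep hearts 0 passed. No marker of mast and type 2 lymphoid cells or of T, B and NK lymphocytes (10 of each on the array) passed the level filter. Of 10 tested endothelial markers 4 rose over both times and 2 fell. Of 10 tested fibroblast markers 0 rose and 3 fell. The all-gene shares were 8.57% higher and 13.6% lower. The part of all these cells in the members' differences was not tested.

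The genes whose log2 signals followed each member most closely over the 12 arrays are given by Pearson's r as a description, since all points share the groups and the MI difference. Il1b was closest to Cd14 (0.939), the lipopolysaccharide co-receptor, then to Hdc (0.933), the histamine-forming enzyme, and S100a9 (0.932), a neutrophil calcium-binding protein. Il1r2 was closest to Gnl3 (0.983), Nop58 (0.976) and Adam8 (0.975), the first 2 of which encode nucleolar proteins. Il4ra was closest to Cnn3 (0.982), Smad1 (0.978) and Ptbp3 (0.977), and Il17ra to Rhob (0.981), the metallothionein Mt2 (0.981) and Map3k6 (0.98). For Il1r1 they were Cyth3 (0.943), Abcc1 (0.942) and Pfkfb3 (0.941). Il1rap had Ugcg (0.897), Phkg2 (0.89) and Sp1 (0.861), and Il18 had Cd68 (0.876), Ifi27l2a (0.871) and Rac2 (0.861). Among the members the highest r was 0.921, for Il4ra with Il17ra, and Il18 had r between -0.332 and -0.0403 with the rest.

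Genes around the receptors were read from lists. Of 20 genes known to respond to interleukin-1, all on the array, 14 were tested, and 10 rose over both times, 9 in wake and 4 in sleep hearts, with none lower. Of all genes, 8.57%, 7.81% and 1.69% were called higher in those comparisons. Their median log2 difference was 1.29 over both times, against -0.06 for all genes. Il6 had a log2 difference of 3.30 (adjusted p = 4.82e-05), with mean signals of 267.5 ± 35.6 in wake MI hearts, against 2.23 ± 1.70 in wake sham hearts, and of 380.7 ± 183 in sleep MI hearts, against 57.3 ± 48.7 in sleep sham hearts (n = 3, SD). The neutrophil chemokine Cxcl2 rose by 2.16 (adjusted p = 1.74e-05) and Ptgs2, the inducible cyclooxygenase, by 1.66 (adjusted p = 0.000213). In sleep hearts the 4 were Cxcl2 (1.91, adjusted p = 0.00412), Il6 (2.65, adjusted p = 0.0156), the monocyte chemokine Ccl2 (1.44, adjusted p = 0.0312) and Ptgs2 (1.27, adjusted p = 0.0422).

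In the relay from the interleukin-1 receptor, 5 of 19 tested genes were higher over both times and 1 lower, with a median of 0.13, against 8.57% of all genes higher and 13.6% lower. In wake hearts 4 were higher, against 7.81%, and in sleep hearts 0 passed. Nfkbia, the NF-kappa B inhibitor that NF-kappa B itself induces, rose over both times by 0.93 (adjusted p = 0.00359) and in wake hearts by 1.399 (adjusted p = 0.00330). Myd88, the adaptor of the receptor, rose by 0.55 (adjusted p = 0.00661), and the kinase gene Map3k8 by 0.64 (adjusted p = 0.0128). Mapk14, which encodes p38 alpha, fell by 0.26 (adjusted p = 0.0408). Among 7 tested genes of interleukin-1 processing and the inflammasome, Casp4, a caspase that senses lipopolysaccharide, rose by 0.79 (adjusted p = 0.0133). Casp1, the enzyme that cuts pro-interleukin-1 beta, is named after its values were seen, and had a difference of -0.27 (adjusted p = 0.142). Of 3 tested genes of the wider interleukin-1 family, Il33, the ST2 ligand, rose by 0.68 over both times (adjusted p = 0.0329) and by 1.09 in wake hearts (adjusted p = 0.0214).

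In the IL-4 and IL-13 pathway 4 of 11 tested genes rose over both times and none fell, with a median of 0.24, against 8.57% of all genes higher and 13.6% lower. Irs2, which encodes a substrate phosphorylated in IL-4 receptor signalling among others, rose by 1.59 (adjusted p = 5.27e-06), in wake hearts by 2.10 (adjusted p = 2.33e-05) and in sleep hearts by 1.08 (adjusted p = 0.00894). Jak2 rose by 0.42 (adjusted p = 0.0114) and Il13ra1, the partner of IL-4R alpha in the type II receptor, by 0.36 (adjusted p = 0.0125). Irs1 fell in wake hearts by 0.76 (adjusted p = 0.00654). In the IL-17 pathway 4 of 9 tested genes rose over both times and in wake hearts, 0 in sleep hearts, with a median of -0.08 over both times, against 8.57% of all genes higher over both times and 7.81% in wake hearts. The transcription factor genes Cebpd (1.17, adjusted p = 0.00171) and Cebpb (0.58, adjusted p = 0.0112) and the siderophore-binding Lcn2 (1.75, adjusted p = 0.0124), which IL-17 is known to induce, were among them. Zc3h12a, also among them, reached the level filter only with its MI arrays, with sham means of 14.2 in wake and 16.7 in sleep hearts. In sham hearts 2 of 9 tested IL-17 genes, Cebpb (-1.14, adjusted p = 0.0127) and Cebpd (-1.52, adjusted p = 0.0211), were lower in wake than in sleep. The median of that list was -0.07, and 1.52% of all genes were called in either direction. Of the 11 tested IL-4 and IL-13 genes 1, Irs1, was higher (1.14, adjusted p = 0.00361), and no gene of the other lists was called. When the MI effects of wake and sleep hearts were compared, no gene of the 6 lists was called. The ligand genes Il1a, Il4, Il13 and Il17a were named after their values were seen, and all 4 were below the level filter, with group means of at most 10.95.

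**Figure D4:**
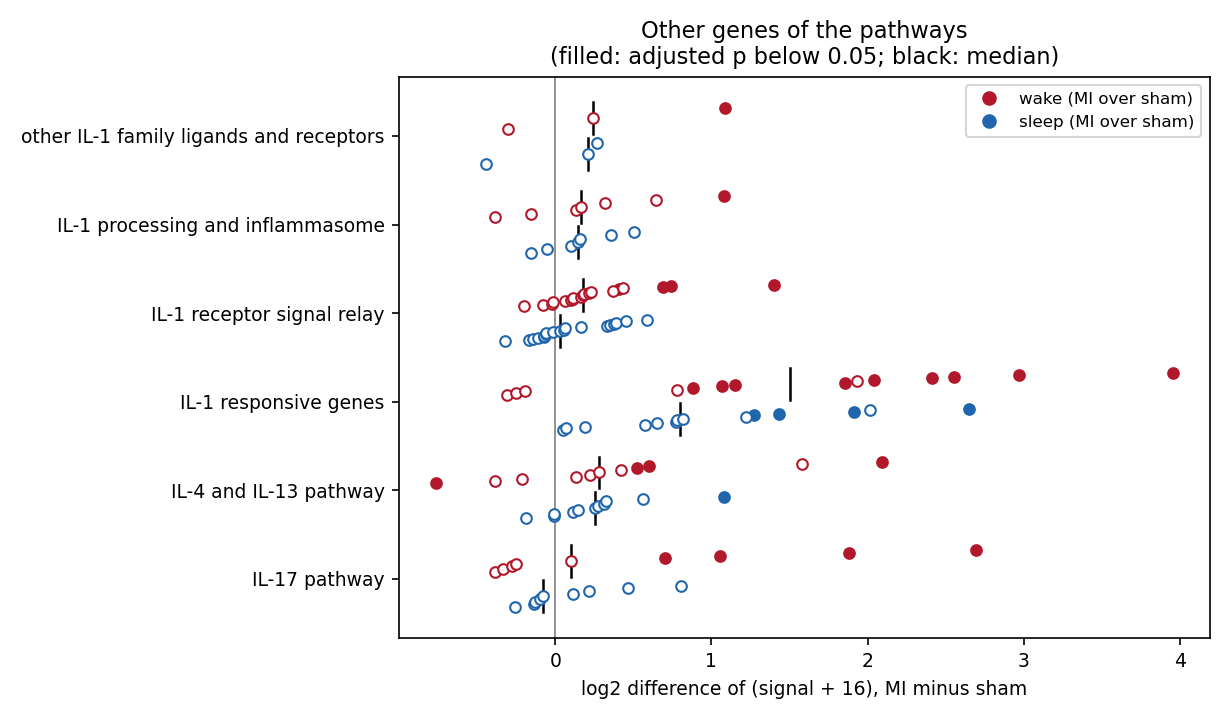
Log2 difference of (signal + 16), MI minus sham, of the tested genes in 6 lists around the receptors, in wake and in sleep hearts; filled points passed the test and black lines are list medians. The interleukin-1 responsive genes have medians of 1.5 in wake and 0.799 in sleep hearts, and the relay genes of 0.177 and 0.0327.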

How the data were processed

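Biotin-labelled material from the heart RNA of 12 mice, 3 in each of 4 groups, was hybridised to 12 Affymetrix arrays. The deposited values are a linear intensity per probe set, which the authors made by MAS5. The tool's name comes from the submitters' processing notes. The sources used here give no version, setting or detection call of MAS5, and no batch or scan date. Of 22690 probe sets, 64 controls were left out, and 20380 had 1 gene symbol, 691 several and 1555 none. Gene identifiers matched a GRCm38.p6 gene table, used for names, for 12369 of 12393 genes. The probe set with the highest mean stood for a gene.

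Signals were taken as log2(signal + 16) and fitted in limma 3.58.1 (R 4.3.3) with 4 group means over 12 arrays, an intensity trend, 8 residual and 13.9 total degrees of freedom, two-sided tests and Benjamini-Hochberg adjustment over 8109 genes in each of 6 comparisons, calling genes at an adjusted p below 0.05. An exact permutation test of 3 against 3 cannot give a p below 0.1. The number of arrays limits the precision. On simulated data for the wake comparison of 8109 genes, the fit recovered 90% of log2 changes of 1 and 100% of those of 2. Alternatives were other pseudocounts, filters, scalings, probe set rules, variance models and array sets, a replicate block, a beta-actin covariate, a stricter threshold and each array left out. The members, gene lists and tests were chosen with earlier results of these data known. The named genes were all members, the 3 genes most alike to each, and up to 3 called genes per pathway list and direction. Trem1, Casp1, Il1a, Il4, Il13, Il17a, Sele and Zc3h12a were named outside that rule, after their values were seen. So were the markers S100a8, S100a9, Hdc, Mmp8, Mmp9, Ngp, Lyz2 and Adgre1. Figures were drawn with matplotlib 3.10.9.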

Additional observations from a re-analysis of the deposited data

How the results depend on the processing

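Of 1006 gene values recomputed under the alternatives, 972 kept their direction where called and their side of the threshold, 30 lost the call, 4 gained one and 0 called values changed sign (29 uncalled ones did). The counts of members called were 5 over both times, 5 in wake, 1 in sleep, 0 between wake and sleep MI hearts, 2 between sham hearts and 0 for the difference of the MI effect. The sleep count was 0 with pseudocount 1, no level filter, the 60th percentile filter, robust variances, the compared groups alone, the beta-actin covariate, an adjusted p below 0.01, or every probe set without a filter (chosen after seeing the data). With the 60th percentile filter, which left 2 members, the counts were 2 over both times, 2 in wake and 1 between sham hearts. The sham count was also 1 with the mean of probe sets, the compared groups alone and the beta-actin covariate. With that covariate the counts were 3 over both times and 3 in wake, without Il1b and Il1r1. Leaving out 1 array gave 0 to 2 in sleep, 1 to 3 between sham hearts and 0 to 1 for the difference. With a replicate block the counts were 5, 5, 1, 0, 2 and 0. The values gave no sign that the replicate numbers pair the samples. Deviations of same-numbered arrays correlated at -0.17 to 0.254, and 2 of 12 arrays correlated best with their own number. Over all genes, calls over both times numbered 1800, but 674 with the beta-actin covariate and 782 below 0.01. Wake calls numbered 1495, but 272 and 567 under those settings, 872 without wake sham replicate 1 and 838 without wake sham replicate 3. Sleep calls numbered 217, but 140 without the filter, 51 below 0.01, and 57, 124 and 109 without sleep MI replicate 1, 2 or 3, and 94 and 83 without sleep sham replicate 1 or 3. Sham calls numbered 123, but 75 without the filter, 72 with the mean of probe sets, 65 with the compared groups alone, 38 with the covariate, 33 below 0.01, 30 and 42 without wake sham replicate 1 or 3, and 51, 35 and 229 without sleep sham replicate 1, 2 or 3. Calls between MI hearts numbered 6, and were 0 without wake MI replicate 2, sleep MI replicate 1 or sleep MI replicate 2. Calls for the difference numbered 0, but 37 without sleep sham replicate 3, 22 without wake sham replicate 2 and 1 to 3 with 6 other settings. The causes were not tested. Signals near 0 limit Il1rn, Il18 and wake sham Il17ra.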
